A study of Homo sapiens with 12 samples.

Results

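The 10 mRNAs described here encode GAPDH and other enzymes of glycolysis, namely HK2, GPI, ALDOA, TPI1, PGK1, ENO1, ENO2, LDHA and LDHB. They were taken by name from a table of 26334 genes, and 10 of 10 were present and passed the filter on low counts. The cells were shA673-1c, grown from the Ewing sarcoma line A673, in which doxycycline switches on a short hairpin RNA that knocks down the fusion EWS::FLI1. All 12 libraries came from cells kept in doxycycline at 1 µg/ml for 4 days, and the series asks how mRNA levels change once 5 µM actinomycin D, an inhibitor of transcription, is added. RNA was taken after 0, 1, 2 and 4 h of actinomycin D, with 3 biological replicates at each time. All groups therefore carried the hairpin and the doxycycline, and a library without either is not analysed here.

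Glycolysis turns glucose into pyruvate in a chain of cytosolic steps, and lactate dehydrogenase then converts pyruvate to lactate. Many tumours use this route heavily even when oxygen is present. GAPDH, which oxidises glyceraldehyde phosphate in the middle of the chain, is also one of the mRNAs most often used to normalise other mRNAs. After transcription is blocked, a reference mRNA with slow decay takes a growing share of the library. The files hold no absolute scale, so every change below is relative to whatever the libraries were scaled by, and fewer cells cannot be told apart from less RNA per cell.

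Total counts lay between 9381855 and 10929000 per library. Of the genes listed as Ewing sarcoma markers, FLI1 averaged 20.5 CPM at 0 h, STEAP1 16.0 CPM, PRKCB 7.44 CPM and NKX2-2 1.57 CPM. Here CPM are counts set to a common library total after TMM scaling. EWSR1, listed with them as a partner gene of the fusion, averaged 236 CPM at 0 h. CD99, a defining marker, was listed at 0 in 12 of 12 libraries. Of 10 markers of blood, epithelium, endothelium and liver, 3 passed the filter, and the highest was HBB with 10.6 CPM at 4 h, against 22.6 CPM at 0 h. Their part in the results was not tested.

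The most abundant of the 10 mRNAs at 0 h, per kb of the longest principal transcript in GENCODE 29, was GAPDH with 2726 CPM per kb. It was followed by ENO1 with 1174, ALDOA with 703, TPI1 with 511, LDHB with 454 and LDHA with 309 CPM per kb. GPI had 101, PGK1 88.0, HK2 13.1 and ENO2 10.6 CPM per kb. Neighbours in this order did not overlap between their 3 libraries, except HK2 with 9.59 to 15.7 and ENO2 with 9.503 to 11.4 CPM per kb. At 4 h the order was the same apart from that pair, with ENO2 at 14.9 to 16.4 CPM per kb and HK2 at 8.73 to 14.5 CPM per kb. The 10 mRNAs together took 1.24% ± 0.0794 of all counts at 0 h, then 1.29% ± 0.0440 at 1 h, 1.32% ± 0.0742 at 2 h and 1.48% ± 0.0780 at 4 h (SD, n = 3 each). GAPDH alone took 0.529% ± 0.0504 at 0 h, then 0.548% ± 0.0290 at 1 h, 0.561% ± 0.0474 at 2 h and 0.646% ± 0.0499 at 4 h.

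At 4 h against 0 h, 8 of the 10 mRNAs were higher with TMM scaling, beside 23.3% of all 12775 genes tested, but none of the 10 was higher when the libraries were scaled to 82 ribosomal protein genes. TMM sets the scale so that most genes, weighted by their counts, keep their level. None was lower with TMM, beside 24.6% of all genes. The rises were modest, between 1.30-fold for PGK1 and 1.48-fold for ENO2, and LDHA and HK2 were the exceptions. The median log2 change over the 10 mRNAs was 0.39, and over all genes tested it was 0.05.

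**Figure D1:**
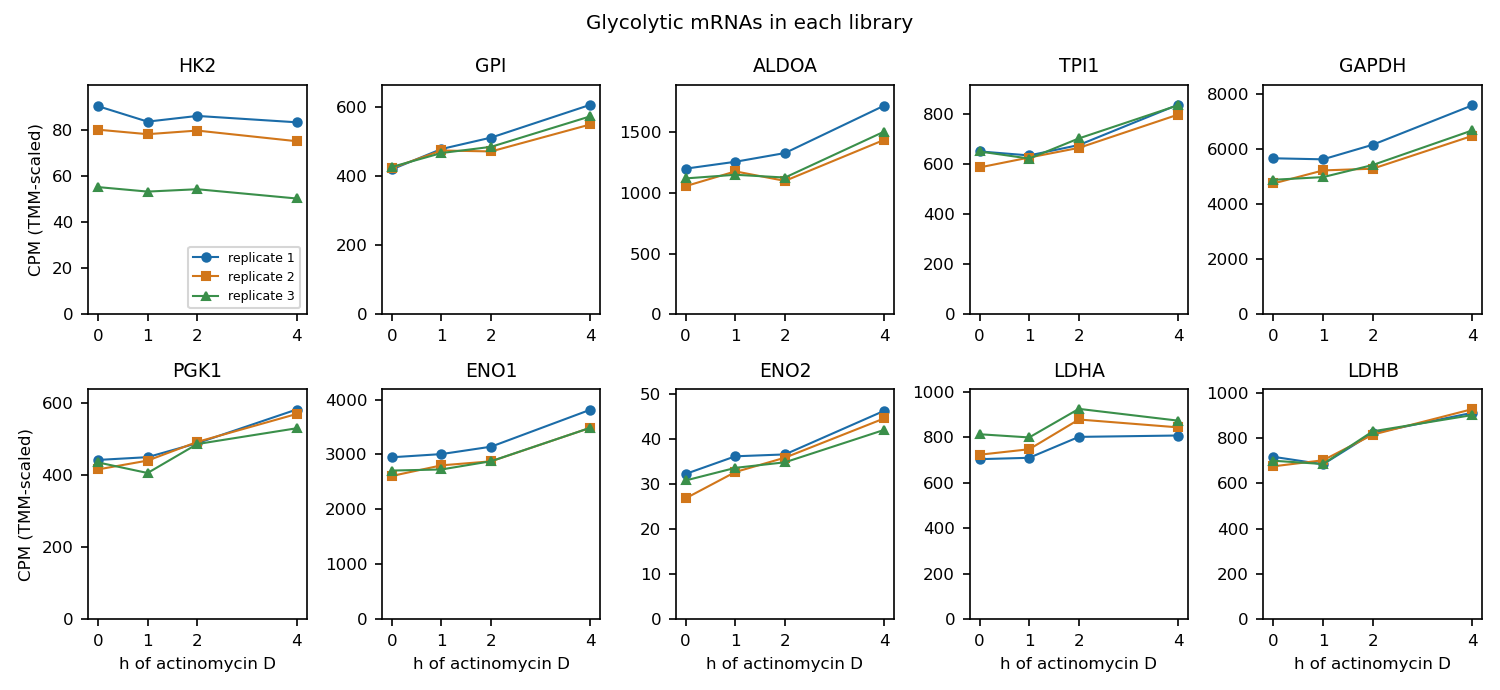
Levels of each mRNA in CPM (y axis, from 0, TMM-scaled) against hours of actinomycin D, with a line for each of the 3 replicates. With this scaling 8 genes are higher at 4 h than at 0 h, LDHA is highest at 2 h in replicates 2 and 3, and HK2 runs flat with replicate 3 below the others at every time. With ribosomal protein scaling none of the 8 is called higher.

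HK2 encodes the inducible hexokinase that traps glucose in the cell by phosphorylation. It had 90.6, 80.3 and 55.3 CPM at 0 h, 83.8, 78.3 and 53.4 CPM at 1 h, 86.3, 79.9 and 54.4 CPM at 2 h, and 83.5, 75.3 and 50.4 CPM at 4 h in replicates 1, 2 and 3. Replicate 3 was the lowest library at every time, and the times overlapped fully. Within each replicate HK2 was lower at 1 h, 2 h and 4 h than at 0 h. The log2 change at 4 h against 0 h was -0.11 ± 0.24 (SE), which did not pass the threshold in edgeR's quasi-likelihood test (adjusted p = 0.725, 95% interval -0.63 to 0.41), nor with the replicate number as a block (adjusted p = 0.0608, interval -0.22 to -0.01).

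GPI, which converts glucose phosphate to fructose phosphate, had 419, 423 and 426 CPM at 0 h, 478, 474 and 466 CPM at 1 h, 511, 471 and 484 CPM at 2 h, and 606, 549 and 573 CPM at 4 h. The 3 libraries at each later time lay above all 3 at 0 h. GPI rose by 0.45 ± 0.05 (log2, SE) at 4 h against 0 h with TMM scaling (edgeR adjusted p = 2.36e-05), but by 0.08 with ribosomal protein scaling (adjusted p = 0.424). It was the gene of the 10 whose replicates agreed most closely at 0 h.

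ALDOA, the aldolase that splits fructose bisphosphate, had 1201, 1057 and 1121 CPM at 0 h, 1258, 1179 and 1151 CPM at 1 h, 1330.1, 1100.3 and 1128 CPM at 2 h, and 1722, 1439 and 1507.5 CPM at 4 h. Only the 4 h libraries stood clear of those at 0 h. The log2 change at 4 h against 0 h was 0.47 ± 0.09 with TMM (adjusted p = 0.000862) and 0.10 with ribosomal protein scaling (adjusted p = 0.512). TPI1, which interconverts the triose phosphates, had 651, 587 and 650.2 CPM at 0 h, 634, 626 and 622 CPM at 1 h, 676, 665 and 702 CPM at 2 h, and 837, 798 and 835 CPM at 4 h. Its libraries at 1 h overlapped those at 0 h, and its log2 change at 4 h against 0 h was 0.39 ± 0.06 with TMM (adjusted p = 0.000103) and 0.02 with ribosomal protein scaling (adjusted p = 0.869).

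GAPDH had 5678, 4760.5 and 4895 CPM at 0 h, 5640, 5236 and 4993 CPM at 1 h, 6170.4, 5299 and 5433 CPM at 2 h, and 7602, 6491 and 6690 CPM at 4 h. Replicate 1 was the highest library at every time, and the 4 h libraries lay above all libraries of the other times. GAPDH rose 1.36-fold at 4 h against 0 h with TMM (log2 0.44 ± 0.09, edgeR adjusted p = 0.00174). With ribosomal protein scaling its log2 change was 0.07 (adjusted p = 0.662). PGK1, which makes ATP from bisphosphoglycerate, had 441, 415 and 434 CPM at 0 h, 449, 439 and 405 CPM at 1 h, 488, 491 and 485 CPM at 2 h, and 581, 569 and 529 CPM at 4 h. The 2 h and 4 h libraries lay above those of 0 h, and the log2 change at 4 h against 0 h was 0.38 ± 0.06 with TMM (adjusted p = 0.000163) and 0.01 with ribosomal protein scaling (adjusted p = 0.94).

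ENO1 and ENO2 encode enolases, the enzyme that forms phosphoenolpyruvate, and ENO2 is known as the neuronal form. ENO1 had 2948, 2607 and 2706 CPM at 0 h, 3006, 2801 and 2726 CPM at 1 h, 3141, 2874 and 2876 CPM at 2 h, and 3815, 3486 and 3486 CPM at 4 h. ENO2, far less abundant, had 32.3, 26.9 and 30.8 CPM at 0 h, 36.2, 32.7 and 33.6 CPM at 1 h, 36.6, 35.9 and 34.9 CPM at 2 h, and 46.4, 44.7 and 42.1 CPM at 4 h. The ENO2 libraries at each later time lay above those at 0 h, whereas for ENO1 only those at 4 h did. At 4 h against 0 h the log2 change was 0.56 ± 0.08 for ENO2 (adjusted p = 0.00013) and 0.39 ± 0.07 for ENO1 (adjusted p = 0.000653) with TMM, and 0.19 for ENO2 (adjusted p = 0.137) and 0.01 for ENO1 (adjusted p = 0.921) with ribosomal protein scaling. ENO2 had the largest positive change of the 10 under both scalings, though it was called with TMM only of these.

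LDHA and LDHB encode the muscle-type and heart-type subunits of lactate dehydrogenase. LDHB had 717, 675 and 700.0 CPM at 0 h, 684, 702 and 685 CPM at 1 h, 822, 815 and 830.01 CPM at 2 h, and 912, 928 and 902 CPM at 4 h. LDHA had 704, 724 and 814 CPM at 0 h, 710.4, 748 and 800.1 CPM at 1 h, 803, 879 and 926 CPM at 2 h, and 809, 844 and 874 CPM at 4 h. For LDHB the libraries of 0 h, 2 h and 4 h did not overlap, while for LDHA those of 0 h and 4 h did, and replicate 3 was the highest LDHA library at every time. LDHB rose by 0.39 ± 0.05 (log2) at 4 h against 0 h with TMM (adjusted p = 2.76e-05), and its change was 0.02 with ribosomal protein scaling (adjusted p = 0.838). LDHA had a log2 change of 0.17 ± 0.075 that missed the threshold with TMM (adjusted p = 0.0757), passed it with the replicate block (0.17, adjusted p = 3.57e-05), and turned round to -0.20 with ribosomal protein scaling (adjusted p = 0.0395). With the replicate block 9 of 10 mRNAs were higher at 4 h than at 0 h, beside 34.8% of all genes. The 8 mRNAs called without the block were also the 8 whose libraries at 4 h all lay above those at 0 h, a separation seen in 27.9% of all genes.

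The comparisons of 1 h, 2 h and 4 h shared their 0 h libraries. At 1 h against 0 h none of the 10 mRNAs passed the threshold in either direction with edgeR, beside 0.172% of genes higher and 1.16% lower. At an unadjusted p under 0.05 edgeR gave 2 higher, ENO2 and GPI, beside 2.78% of genes higher at that threshold. DESeq2 called 0, and the replicate block called GPI alone (log2 change 0.16, adjusted p = 0.00326, beside 2.52% of genes higher). At 2 h against 0 h 2 of 10 were higher, beside 3.39% of genes, and none lower, beside 11.7%. The 2 were LDHB (0.24 ± 0.05, adjusted p = 0.00436) and GPI (0.21 ± 0.05, adjusted p = 0.0193). Neither call was kept with ribosomal protein scaling. The GPI call was also lost when any 0 h library or replicate 1 at 2 h was left out (adjusted p = 0.0513 to 0.0738). With the replicate block 8 of 10 were higher at 2 h, beside 15.9% of genes, and ALDOA (0.07, adjusted p = 0.104) and HK2 (-0.04, adjusted p = 0.648) were not called.

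At 4 h against 2 h 8 of 10 were higher with TMM, beside 10.2% of genes, and none lower, beside 14.2%. The 8 ran from 0.15 ± 0.05 for LDHB (adjusted p = 0.0355) to 0.39 ± 0.09 for ALDOA (adjusted p = 0.00644), but none of the 10 was called higher with ribosomal protein scaling, beside 0.963% of genes. LDHA, with 809, 844 and 874 CPM at 4 h and 803, 879 and 926 CPM at 2 h, had a log2 change of -0.045 ± 0.075 (adjusted p = 0.728). HK2 had a change of -0.08 ± 0.24 (adjusted p = 0.864). The count of 8 fell to 4 without replicate 2 at 2 h, and to 3 without replicate 3 at 2 h or without replicate 1 at 4 h. Over all genes the number higher also fell, from 1302 of 12775 to 807 of 12915, 843 of 12902 and 821 of 12916 in the same order. ALDOA, TPI1 and GPI were the 3 genes called higher in each of those 3 fits. GAPDH was not called in any of the 3 (adjusted p = 0.122, 0.125 and 0.136).

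Most of these calls changed with the scale. With library totals in place of TMM, 8 of 10 were higher at 4 h against 0 h, beside 10.5% of genes, and the log2 change of GAPDH was 0.29. With ribosomal protein scaling 0 of 10 were higher, beside 1.22% of genes, and LDHA alone was lower, beside 45.7% of genes. Between these scalings the median log2 change of all genes at 4 h moved to -0.10 with totals and to -0.32 with ribosomal protein genes, against 0.05 with TMM. With GAPDH itself held constant that median was -0.39.

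**Figure D2:**
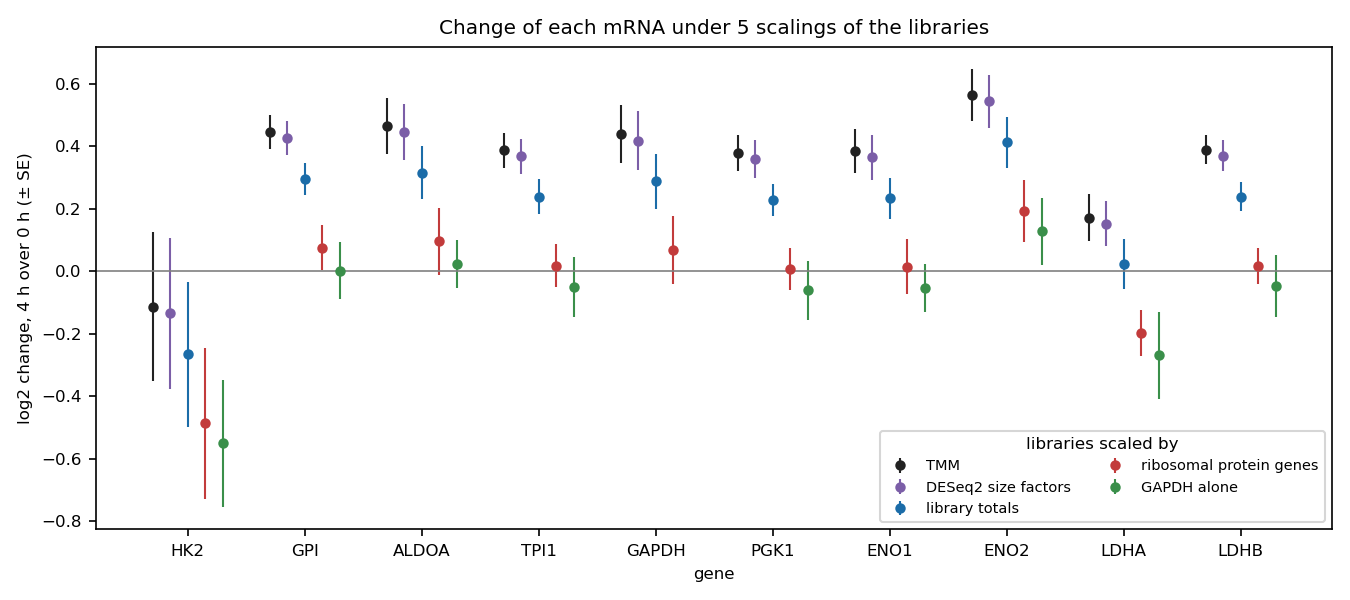
The log2 change at 4 h over 0 h (y axis, with bars of 1 SE) for each gene under 5 scalings of the 12 libraries. The 8 genes called higher with TMM lie near 0 with ribosomal protein scaling, apart from ENO2 at 0.19. With GAPDH as the only reference GAPDH has no point, ENO2 lies at 0.13, and ENO1, LDHB, PGK1 and TPI1 turn slightly negative. HK2 lies below the other genes throughout.

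The mRNAs differed in the decay motifs of their 3′ UTRs, the part of the mRNA after the stop codon. AU-rich elements built on ATTTA and its longer form TATTTAT are known to bind proteins that hasten or slow decay. Only the sense strand of the principal transcripts of GENCODE 29 was searched, overlapping copies were counted, and every TATTTAT also holds an ATTTA. Among 11560 tested genes with a 3′ UTR, 71.7% held ATTTA and 34.4% held TATTTAT. GAPDH, ENO1 and TPI1 held neither in UTRs of 201, 360 and 445 bases. Among genes with UTRs of similar length, ATTTA was present in 28.5%, 44.2% and 50.3%, and TATTTAT in 8.69%, 12.4% and 14.9%. ENO2 held 4 overlapping copies of TATTTAT in 896 bases, HK2 held 2 copies in 2418 bases and PGK1 held 1 copy in 3466 bases. TATTTAT was present in 23.8% of genes with UTRs of similar length to that of ENO2, in 51.4% for HK2 and in 60.6% for PGK1. LDHA held 1 ATTTA in 1144 bases and LDHB 1 in 200 bases, and neither held TATTTAT. In genes with UTRs of similar length, ATTTA was present in 79.95% for LDHA and in 28.7% for LDHB. The windows below are shown for the genes that stood apart, ENO2 as the mRNA with the greatest rise, HK2 and LDHA as the mRNAs that did not pass the threshold, and LDHB as the partner of LDHA. Capitals mark the motif, and each window is 30 bases of the transcript, read 5′ to 3′.
ENO2, chromosome 12: tagtgTATTTATTTATTTATTTATtttatt
HK2, chromosome 2: tgtacgtaatgTATTTATatgttaatttgt
HK2, chromosome 2: tggtttttgtaTATTTATcaaacttgtgct
LDHA, chromosome 11: tgtaaatgtaaaATTTAtttgccaactgaa
LDHB, chromosome 12: taggctgtagaaATTTAaaaactacaatgt
The run in ENO2 was 19 bases long. The mRNAs that held TATTTAT had log2 changes at 4 h against 0 h with TMM of 0.56 (ENO2), 0.38 (PGK1) and -0.11 (HK2). Those that lacked it had 0.47 (ALDOA), 0.45 (GPI), 0.44 (GAPDH), 0.39 (LDHB and TPI1), 0.385 (ENO1) and 0.17 (LDHA). A match is a description of these letters, and binding at them was not tested.

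Count ratios within a library do not depend on how libraries are scaled. The log2 ratio of HK2 to GAPDH was -5.97, -5.89 and -6.47 at 0 h, then -6.07, -6.06 and -6.55 at 1 h, -6.16, -6.05 and -6.64 at 2 h, and -6.51, -6.43 and -7.05 at 4 h in replicates 1, 2 and 3. It was lower at 4 h than at 0 h by more than 0.5 in each replicate. With GAPDH as the only reference, HK2 fell by 0.55 ± 0.20 at 4 h against 0 h (edgeR adjusted p = 0.0391, beside 45.7% of genes lower), and by 0.55 ± 0.06 with the replicate block (adjusted p = 1.17e-09). That blocked fit called 67.1% of all genes, in either direction. Without the block the call was lost when replicate 1 or 2 at 0 h (adjusted p = 0.0949 and 0.159) or replicate 1 or 3 at 4 h (adjusted p = 0.053 and 0.157) was left out.

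The log2 ratio of LDHA to LDHB was -0.03, 0.10 and 0.22 at 0 h, then 0.05, 0.09 and 0.22 at 1 h, -0.03, 0.11 and 0.16 at 2 h, and -0.17, -0.14 and -0.04 at 4 h. The 4 h libraries lay below all others, and the ratio stayed close to its start until 2 h. With LDHB as the only reference, LDHA fell by 0.22 ± 0.08 at 4 h against 0 h (adjusted p = 0.0328, beside 48.1% of genes lower), and by 0.22 ± 0.04 with the replicate block (adjusted p = 6.42e-06). Relative to GAPDH the log2 ratio of LDHA was -3.01, -2.72 and -2.59 at 0 h, then -2.99, -2.81 and -2.64 at 1 h, -2.94, -2.59 and -2.55 at 2 h, and -3.23, -2.94 and -2.94 at 4 h. This ratio was lower at 4 h than it had been at 0 h in each replicate, a change that passed the threshold with the replicate block (-0.27, adjusted p = 8.5e-07) and missed it without (-0.27 ± 0.14, adjusted p = 0.131). At 4 h against 0 h the blocked fits called 62.3% of all genes relative to LDHB and 67.1% relative to GAPDH, in either direction.

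The enolase ratio changed with the opposite sign. The log2 ratio of ENO2 to ENO1 was -6.51, -6.60 and -6.46 at 0 h, then -6.38, -6.42 and -6.34 at 1 h, -6.42, -6.32 and -6.37 at 2 h, and -6.36, -6.29 and -6.37 at 4 h. The ratio was higher at every later time than at 0 h in each replicate, with most of the difference present by 1 h. With ENO1 as the only reference, the change at 1 h against 0 h was 0.14 ± 0.08 and was not called (edgeR adjusted p = 0.735). The replicate block did not call that change either (0.14, adjusted p = 0.23). At 4 h against 0 h the change was 0.18 ± 0.08, which missed the threshold (adjusted p = 0.092) and passed it with the block (0.18, adjusted p = 0.0306). HK2 relative to HK1, the hexokinase found in most tissues, changed by -0.42 ± 0.22, which also passed with the block (adjusted p = 2.11e-06) and not without (adjusted p = 0.169). The blocked fits called 63% of all genes relative to ENO1 and 55.5% relative to HK1, in either direction.

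**Figure D3:**
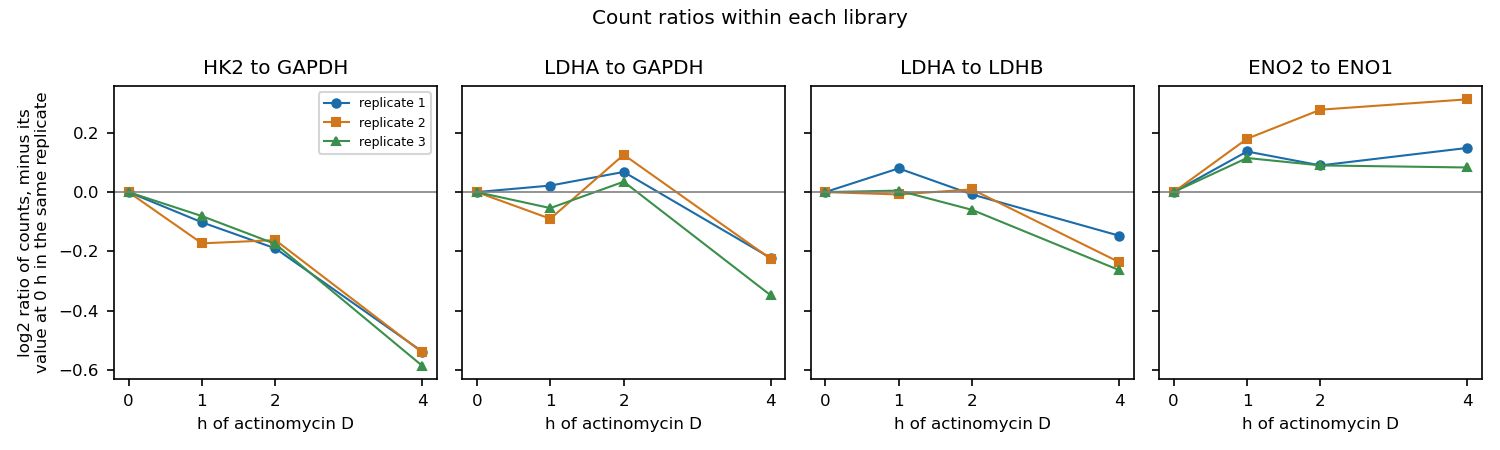
The log2 ratio of counts of each pair of mRNAs in a library, minus the ratio at 0 h in the same replicate (y axis), against hours of actinomycin D. HK2 to GAPDH lies below 0 at each later time in the 3 replicates, LDHA to GAPDH and LDHA to LDHB lie below 0 at 4 h, and ENO2 to ENO1 lies above 0 at 1, 2 and 4 h.

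Among the 9 other mRNAs set against GAPDH, HK2 was the one called different at 4 h against 0 h without the block. The changes relative to GAPDH were -0.054 for ENO1, -0.048 for LDHB, -0.061 for PGK1, -0.051 for TPI1, 0.002 for GPI, 0.02 for ALDOA and 0.13 for ENO2 (adjusted p from 0.365 for ENO2 to 0.989 for GPI). The closest in pattern to GAPDH, by the SD over 12 libraries of the log2 ratio to GAPDH, among 4214 genes with at least 50 CPM, were PKM (0.0364), ENO1 (0.0431), BAG6 (0.045), UBA1 (0.0453) and ABCC1 (0.0472). PKM encodes pyruvate kinase, the last enzyme of the chain. ALDOA came in place 8 with 0.0527, TPI1 in place 179, GPI in place 180, PGK1 in place 197 and LDHB in place 464. LDHA in place 2379 and HK2 in place 3492 were far from it by this measure, and ENO2 (0.0926) was under the CPM minimum and unranked. Between the other members the smallest SD of a log2 ratio was that of LDHB to PGK1, 0.0505. Fits with each gene as the only reference gave, beyond those named, LDHA lower relative to ENO2, TPI1 and GPI (-0.40, -0.22 and -0.27, adjusted p = 0.00657, 0.0448 and 0.0256), HK2 lower relative to ENO2 and ALDOA (-0.69 and -0.58, adjusted p = 0.0124 and 0.0343), and PGK1 lower relative to ENO2 (-0.19, adjusted p = 0.0459). The shares of all genes lower on these scales were 62.8% relative to ENO2, 46.5% to TPI1, 52.2% to GPI and 47.9% to ALDOA. In these fits, which had no replicate block, the calls also depended on which gene of a pair was the reference. The swap with the block is not reported here. Of the 8 pairs of the 10 mRNAs called in this way, HK2 with GAPDH and LDHA with LDHB included, LDHA and ENO2 was the 1 called with the roles swapped as well (ENO2 relative to LDHA 0.39, adjusted p = 0.0219). The other 7 were not called when swapped, with adjusted p from 0.0554 for GPI relative to LDHA to 0.276 for ALDOA relative to HK2.

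As a measure of use as reference mRNAs, the SD of log2 CPM over the 12 libraries was set beside that of 4215 genes with at least 50 CPM, whose median was 0.167 with TMM. LDHA was the steadiest of the 10 with 0.128, and 26.9% of those genes were steadier. ENO1 (0.170), PGK1 (0.170), GPI (0.172), TPI1 (0.172) and LDHB (0.178) lay near the median, with 52.0% to 57.8% of genes steadier. GAPDH had 0.204 with 70.9% of genes steadier, ALDOA 0.213 with 74.4%, and HK2 0.315 with 90.2%. ENO2 had 0.226 and was not ranked, since its mean was under 50 CPM. These SDs hold both the spread between replicates and the change with time, and for HK2 replicate 3 was low at every time.

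Part of this order changed with the scale. GAPDH, ALDOA and HK2 had the largest SDs of the 9 ranked genes on both scales, while LDHA lost first place and LDHB gained it. With ribosomal protein scaling LDHB had an SD of 0.0593, PGK1 0.0641 and TPI1 0.0652, with 2.61%, 3.77% and 4.01% of genes steadier. GAPDH had 0.130 with 34.9% of genes steadier, and LDHA, steadiest of the 10 with TMM, had 0.129 with 34.3%. HK2 had the largest SD of the 10 on either scale. Among other common reference genes, IPO8 (0.0675, 1.83% of genes steadier) and SDHA (0.0831, 4.84%) had SDs below those of the 10 with TMM, and TBP (0.401) one above them. With ribosomal protein scaling IPO8 had 0.189 and SDHA 0.161. Of 16 such genes 8 were higher and 1 lower at 4 h against 0 h with TMM, beside 23.3% and 24.6% of all genes, and the 1 lower was TBP, with a log2 change of -0.90. On the ribosomal protein scale none of the 16 was higher, beside 1.22% of all genes, and 6 were lower, beside 45.7%, with TBP, IPO8 and SDHA among them. RPLP0, RPL13A and RPS18, also among the 16, belong to the ribosomal protein genes that set this scale. Their steadiness on it is partly built in.

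**Figure D4:**
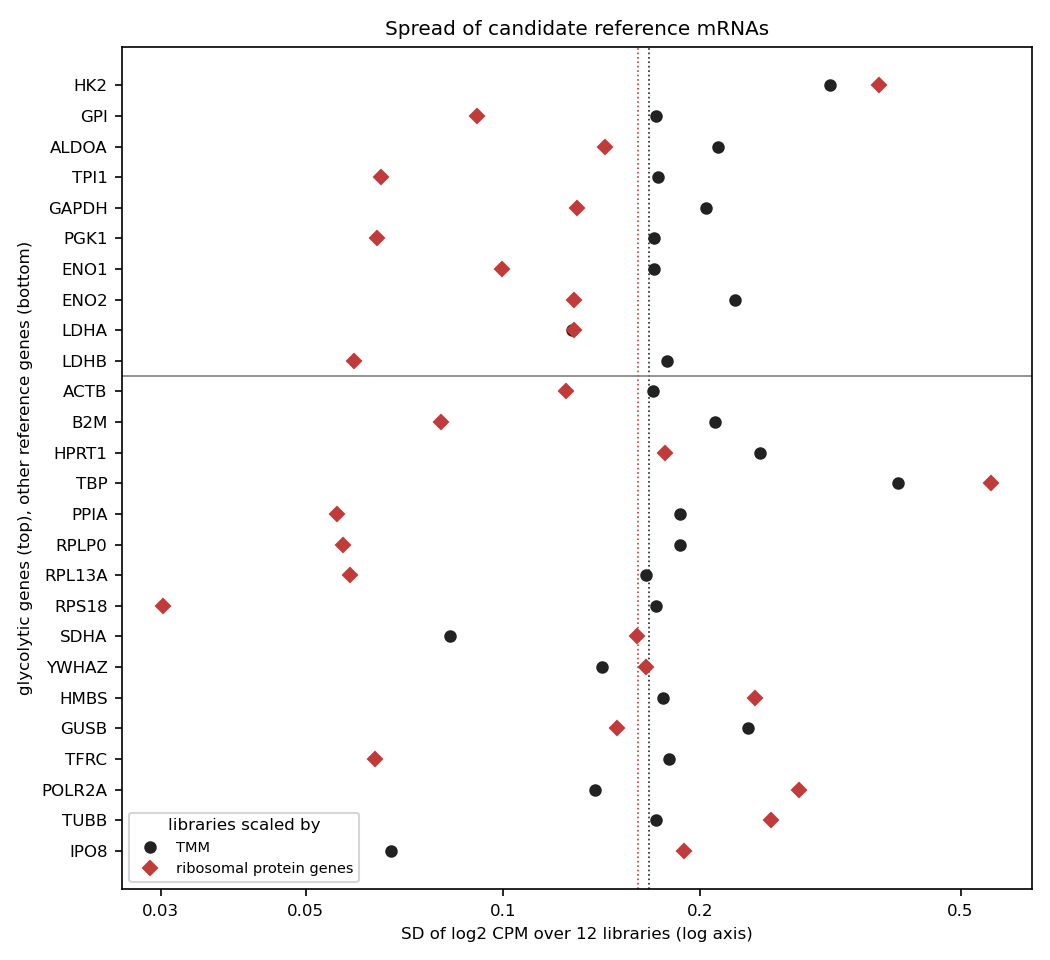
SD of log2 CPM over the 12 libraries (x axis, log scale) for the 10 glycolytic genes above the line and 16 other reference genes below it, with TMM (circles) and ribosomal protein scaling (diamonds). Dotted lines mark the medians of genes with at least 50 CPM, 0.167 with TMM and 0.161 with ribosomal protein scaling, and LDHB, PGK1 and TPI1 lie well left of theirs under ribosomal protein scaling only. RPLP0, RPL13A and RPS18 belong to the genes that set the ribosomal protein scale.

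The choice among the 10 as reference moved the whole table. With GAPDH as the only reference, 0.509% of genes were higher and 45.7% lower at 4 h against 0 h, and the median change over all genes was -0.39. The median was -0.33 with ENO1, -0.34 with LDHB, -0.32 with PGK1, -0.34 with TPI1, -0.39 with GPI and -0.41 with ALDOA. It was -0.52 with ENO2 at one end, and -0.12 with LDHA and 0.17 with HK2 at the other. With SDHA it was 0.00, with IPO8 0.12 and with TBP 0.95.

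The effect on single mRNAs was read from 5 genes that fell with TMM, the unstable mRNAs MYC, JUN, NFKBIA and DUSP6, and FLI1. MYC, a transcription factor gene, fell 20.0-fold at 4 h against 0 h with TMM, 27.2-fold with GAPDH as reference, 18.7-fold with HK2 and 29.9-fold with ENO2. JUN, an immediate early gene, fell 20.7-fold with TMM and between 19.5-fold with HK2 and 30.9-fold with ENO2. NFKBIA, which encodes an inhibitor of NF-kappa-B, fell 43.7-fold with TMM and between 43.0-fold and 65.0-fold with the same pair. Its mean was 0.90 CPM at 4 h against 39.8 CPM at 0 h, so the size of this fall rests on few counts (log2 -5.45 ± 0.24 with TMM). DUSP6, a phosphatase gene of the MAP kinase pathway, fell 19.2-fold with TMM and between 17.6-fold and 28.5-fold. FLI1, whose 3′ part is shared with the fusion transcript, fell 2.76-fold with TMM, 3.76-fold with GAPDH, 2.59-fold with HK2 and 4.09-fold with ENO2. All 5, listed as genes that fell with TMM, passed the threshold at 4 h against 0 h with every one of the 10 as reference. The share of all genes lower in these fits ran from 7.88% with HK2 to 62.8% with ENO2. At 2 h against 0 h FLI1 was not called with HK2 as reference (-0.90 ± 0.30, adjusted p = 0.23). With TBP as reference the fall of FLI1 was 1.48-fold (adjusted p = 0.0436).

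**Figure D5:**
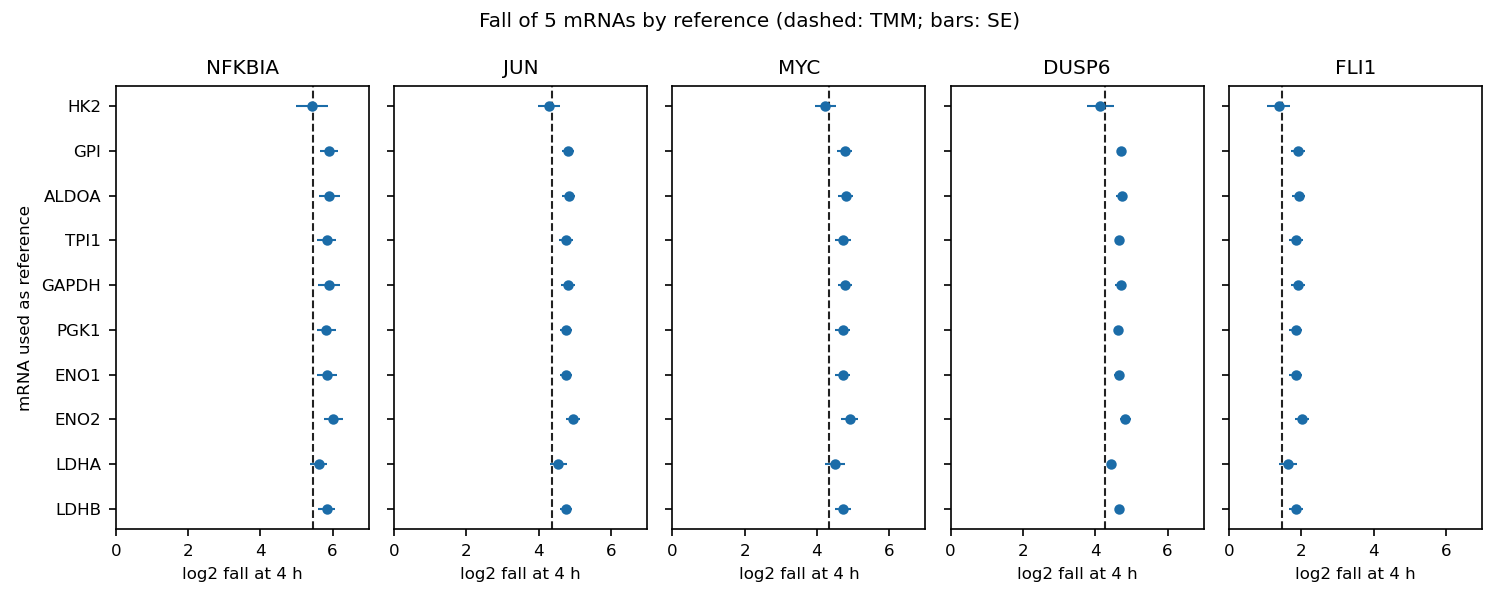
Fall of NFKBIA, JUN, MYC, DUSP6 and FLI1 at 4 h against 0 h in log2 units (x axis, bars of 1 SE), with each of the 10 mRNAs as the only reference (rows) and with TMM (dashed line). The fall is smallest with HK2 and largest with ENO2 for each of the 5, and the other 8 references lie to the right of the TMM line.

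Of 22 further glycolysis genes 11 passed the filter, and 9 of these were higher and none lower at 4 h against 0 h with TMM (median log2 change 0.42), 6 with library totals and none with ribosomal protein scaling, which called BPGM alone lower (-0.39, adjusted p = 0.0222). Of all genes, 23.3% were higher and 24.6% lower with TMM, and 10.5% were higher with library totals. With ribosomal protein scaling 1.22% of all genes were higher and 45.7% lower. PGAM1, a phosphoglycerate mutase, had 106, 102 and 117 CPM at 4 h, against 79.1, 74.6 and 82.3 CPM at 0 h. PFKP, a phosphofructokinase, had 470.0, 435 and 409 CPM at 4 h, against 325, 321 and 314 CPM at 0 h. ADPGK, an ADP-dependent glucokinase, had 107, 107 and 110 CPM at 4 h, against 73.7, 80.7 and 88.5 CPM at 0 h. For these 3 the libraries at 4 h all lay above those at 0 h, a separation seen in 27.9% of all genes. Their log2 changes were 0.46 ± 0.07, 0.45 ± 0.07 and 0.42 ± 0.07 (adjusted p = 0.000147, 0.000156 and 0.000306). HK1 rose by 0.30 ± 0.06 with TMM (adjusted p = 0.00165), but turned to -0.07 with ribosomal protein scaling (adjusted p = 0.497), and it had 389, 342 and 355 CPM at 4 h, against 299, 283 and 300.3 CPM at 0 h. BPGM (-0.02) and HKDC1 (0.24) were the 2 not called with TMM.

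Of 15 genes of glucose, pyruvate and lactate transport 12 were tested, and BSG, the partner protein of the lactate carriers, was the 1 called, with 1063, 1062.5 and 1075 CPM at 4 h, against 676, 734 and 780 CPM at 0 h (log2 change 0.55 ± 0.07, adjusted p = 2.28e-05). It was also called with ribosomal protein scaling (0.18 ± 0.07, adjusted p = 0.0384). With TMM that 1 of 12 stood beside 23.3% of all genes called higher, whereas the replicate block called 5 of the 12 higher, beside 34.8% of all genes. With ribosomal protein scaling BSG was the 1 of the 12 higher and 4 were lower, beside 1.22% and 45.7% of all genes. The median log2 change of the 12 on that scale was -0.29. Of 21 regulators of glycolysis 18 were tested, 1 was higher and 7 were lower at 4 h against 0 h with TMM, beside 23.3% and 24.6% of all genes. With ribosomal protein scaling 11 of the 18 were lower, on a scale that called 45.7% of all genes lower. MYC had 4.34 CPM on average at 4 h and 86.9 CPM at 0 h (log2 change -4.32 ± 0.22, adjusted p = 1.07e-08). TXNIP and ARRDC4 encode arrestin-domain proteins that restrain glucose uptake, and fell by 0.87 and 1.26 on the log2 scale (adjusted p = 2.46e-06 and 8.38e-06). PFKFB3, which makes the activator of phosphofructokinase, had 116, 119 and 130 CPM at 4 h, against 190, 214 and 211 CPM at 0 h (adjusted p = 7.09e-06). The single rise was EPAS1, a hypoxia-inducible factor gene named after its value was seen (0.42 ± 0.09, adjusted p = 0.0018), while HIF1A was not called (0.05, adjusted p = 0.494). Scaled to ribosomal protein genes, EPAS1 was not called (0.05, adjusted p = 0.726) and HIF1A was lower (-0.32, adjusted p = 0.00312).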

How the data were processed

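Per the labels' protocols, polyA RNA from a Nucleospin extraction went into Illumina TruSeq stranded mRNA libraries. The authors deposited raw counts per gene symbol. Per the submitters' processing notes, the tools were FastQC and STAR and the build was hg19. Which program counted the reads, with which annotation and strand, is not given in the sources used here. How reads shared with processed pseudogenes were treated is therefore unknown, and the only such rows seen, TPI1P2 and TPI1P3, had at most 11 and 3 counts. All counts came from 12 mapped columns, and no coordinates are printed because the transcripts used (GENCODE 29) belong to another build.

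The tool was edgeR 4.0.16 under R 4.3.3. After filterByExpr and TMM, 1 quasi-likelihood fit over all 12 libraries gave each comparison. Benjamini-Hochberg adjustment ran over all genes tested, at a threshold of 0.05. SE is the log2 change divided by the root of F. Reference fits scaled every library to 1 gene and repeated this. Ratios per library were taken from raw counts. The fit was tested on simulated data.

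Same-numbered libraries deviated together from their time means (correlation 0.301 to 0.710, against -0.558 to 0.194 between numbers), so the numbers pair the libraries. Chi-square per degree of freedom between replicates was 4.27 to 15.8, and each library counted as 1 replicate. Alternatives were DESeq2 size factors, library totals, ribosomal protein genes or GAPDH as scale, no filter, DESeq2 1.42.0, the replicate block and each library left out.

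The members and lists were chosen with earlier results of these data known. Named genes were the 10 members, the reference genes, up to 4 called genes per list by smallest adjusted p, and the 5 most like GAPDH. Some commonly used reference genes are not reported here.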

Additional observations from a re-analysis of the deposited data

How the results depend on the processing

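The replicate block added calls and removed none among the 10 mRNAs: the number higher was 1 at 1 h, 8 at 2 h and 9 at 4 h against 0 h, and 8 at 4 h against 2 h. The shares of all genes higher with the block were 2.52%, 15.9%, 34.8% and 22.1% in the same order. At 2 h against 0 h, 1 mRNA was higher with library totals (beside 1.12% of genes) and 0 with ribosomal protein scaling (0.196%). GAPDH scaling gave 0 of the 9 others higher (0.117%), and DESeq2 gave 4 of the 10 (3.24%). Leaving out each library gave 1 to 2 higher, with 1 without replicate 2 at 0 h. Over all genes these fits gave 135 to 346 higher, against 433 with every library. At 4 h against 0 h, ribosomal protein scaling and GAPDH scaling each gave 0 higher and 1 lower, with GAPDH scaling among the 9 others. Of all genes 1.22% and 0.509% were higher on these scales, and 45.7% were lower on both. Leaving out each library gave 8 to 9 higher at 4 h against 0 h, beside 2306 to 2634 of all genes, against 2975 with every library. At 4 h against 2 h, 5 were higher with DESeq2 size factors (beside 8.63% of genes) and 2 with library totals (4.84%). Ribosomal protein scaling gave 0 higher (0.963%) and 1 lower (30.1%), and GAPDH scaling gave 0 of the 9 others higher (0.133%). Leaving out each library gave 3 to 7 higher, beside 807 to 1074 of all genes, against 1302 with every library. Among changes called with TMM or with the other scaling, signs reversed with ribosomal protein scaling for LDHA at 4 h against 0 h (-0.20), and for LDHB (-0.08) and PGK1 (-0.035) at 4 h against 2 h. They reversed with GAPDH scaling at 4 h against 0 h for ENO1 (-0.054), LDHB (-0.048), PGK1 (-0.061) and TPI1 (-0.051), and at 4 h against 2 h for ENO1 (-0.019), LDHB (-0.145), PGK1 (-0.103), TPI1 (-0.026) and GPI (-0.062). None of these reversed values passed the threshold except that of LDHA. Changes called on neither scale also turned negative, for LDHA with GAPDH scaling at 4 h against 0 h (-0.27), and at 2 h against 0 h with both ribosomal protein and GAPDH scaling for ENO1 (-0.033 and -0.035), TPI1 (-0.025 with both) and ALDOA (-0.062 and -0.071). The uncalled change of HK2 at 4 h against 0 h turned positive without replicate 1 at 0 h (0.039) or replicate 3 at 4 h (0.075). Changes near 0 at 1 h took either sign. Both scalings hold abundant mRNAs constant by construction, and which scale is nearest to molecules per cell was not tested. The SD over libraries moved most for LDHB, to 0.0593 with ribosomal protein scaling. Taken over all genes tested, the spread between replicates exceeded counting error (chi-square per degree of freedom 4.27 to 15.8). For single genes, the 10 mRNAs included, this was not tested.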
